A study of Mus musculus with 6 samples.

Results

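The apolipoproteins described here are Apoa1, Apoa2, Apoa4, Apoa5, Apob, Apoc1, Apoc2, Apoc3, Apoe and Apom, 10 genes whose transcripts were measured in mouse liver after social isolation. Members were taken by annotation, as every probe set assigned to exactly 1 of these symbols, which gave 16 of the 45101 probe sets in the table, and 10 of the 18194 genes with such a probe set. All 16 passed the filter on dim signals, so none is left without a test. Apoa1 has 4 probe sets, Apoa4, Apob and Apom have 2 each, and the other 6 genes have 1 each.

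The isolated group was 3 liver samples from male BALB/c mice, 10 weeks old, kept singly and with less bedding for 30 days. The control group was 3 liver samples from male BALB/c mice of the same age. The mice were 4 weeks old at the start, spent 10 days of acclimatisation at 5 per cage, and had food and water at will. How control mice were caged afterwards is not given in the sources used here. Each sample was hybridised to its own Affymetrix array, and the values are MAS5 signals, a linear brightness per probe set in arbitrary units. The labels number the samples but do not say that each came from a separate mouse, so the spread between replicates may be partly technical.

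Apolipoproteins are the protein part of lipoproteins, the particles that carry triglyceride and cholesterol through blood. The liver builds very low density lipoprotein around apoB and releases apoA-I and apoA-II as the main proteins of high density lipoprotein, HDL. The small exchangeable apolipoproteins then move between particles and set how fast lipoprotein lipase strips their triglyceride and how fast receptors take up the remnants. In liver many apolipoprotein transcripts are among the most abundant. On an array many of their probe sets, though not all, lie near the upper end of the measured range.

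The question for this family is whether isolation changed the level of any of its transcripts. In the limma fit over 22519 tested probe sets, 0 of the 16 apolipoprotein probe sets passed an adjusted p under 0.05, where 1.63% of all tested probe sets did. The adjusted p ran from 0.488 for Apoa5 to 0.974 for Apoc1, and 0 of the 16 had an unadjusted p under 0.05, where 4.53% of tested probe sets did so lower and 6.89% higher in isolated samples. Log2 changes, isolated minus control, ran from -0.25 to 0.24, with 15 of 16 below 0 and a median of -0.08. Over all tested probe sets the median was 0.04 and 44.6% lay below 0. Among the 215 other probe sets in the brightest 1%, 3 were called, 72.1% lay below 0 and the median was -0.03.

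Intervals were narrowest at the bright end. Of the 16 probe sets, 10 were in that brightest 1%, and their 95% intervals reached no lower than -0.47 and no higher than 0.21 on the log2 scale. The other 6 had intervals that reached -0.58 and 0.56. A change of 1 log2 unit in either direction lies outside all 16 intervals. These intervals rest on 3 arrays per group and on limma's variance trend, so they bound the change in signal and not in protein.

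**Figure D1:**
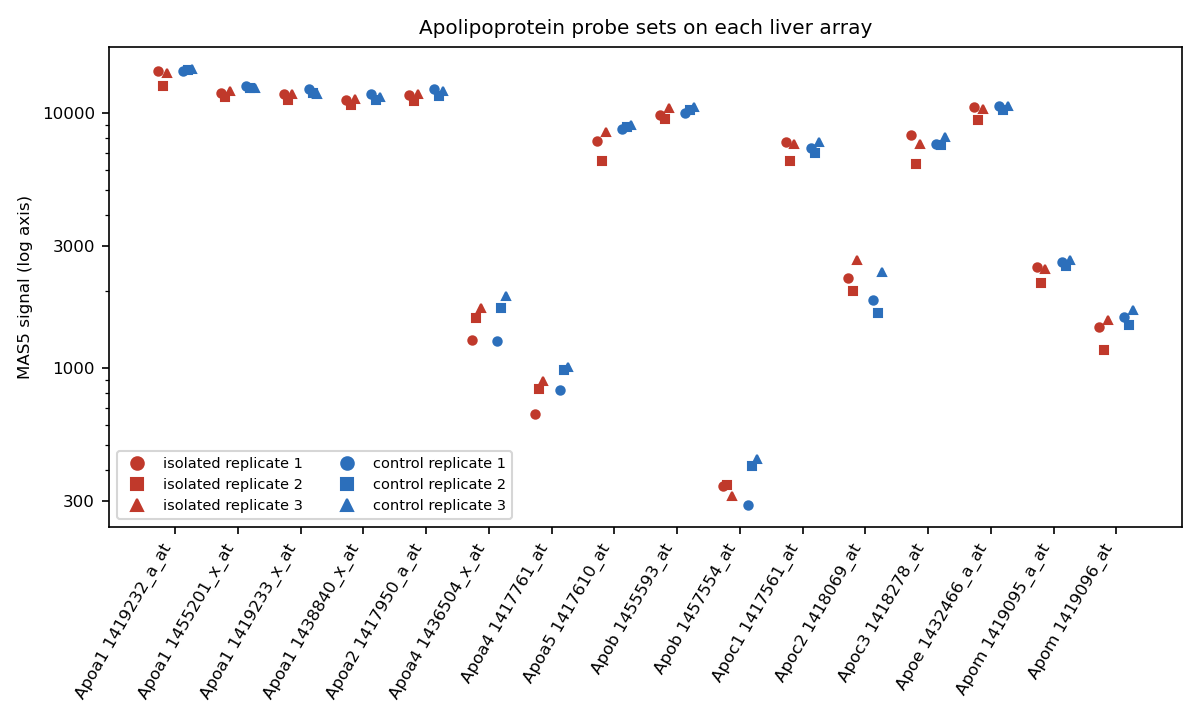
MAS5 signal (log axis, arbitrary units) of each of the 16 apolipoprotein probe sets on each array, with the 3 isolated samples in red left of the 3 control samples in blue. Groups lie close together throughout; isolated replicate 2, the red square, is the lowest of the 6 arrays for 12 probe sets, and Apoc2 is the 1 probe set whose isolated mean exceeds the control mean.

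In the RefSeq gene table of mouse assembly GRCm38.p6, Apoa1, Apoc3, Apoa4 and Apoa5 follow each other on chromosome 9 with no other protein-coding gene between them. Apoc2, Apoc1 and Apoe lie together on chromosome 7 with Apoc4. Apoa2 is on chromosome 1, Apob on chromosome 12 and Apom on chromosome 17. Promoter windows are printed for the chromosome 9 neighbours that the RefSeq promoter table of GRCm38.p6 holds, since these 3 genes hold the brightest probe set of the family and its 2 lowest log2 changes. Apoa5 has 2 windows in the table, and the first by position is shown. Each runs from 250 bases before to 50 bases after the annotated start, on the plus strand. Apoa1 is at chr9:46228380-46228679, Apoa4 at chr9:46240594-46240893 and Apoa5 at chr9:46268358-46268657, and capitals mark the motif matches described next.
Apoa1: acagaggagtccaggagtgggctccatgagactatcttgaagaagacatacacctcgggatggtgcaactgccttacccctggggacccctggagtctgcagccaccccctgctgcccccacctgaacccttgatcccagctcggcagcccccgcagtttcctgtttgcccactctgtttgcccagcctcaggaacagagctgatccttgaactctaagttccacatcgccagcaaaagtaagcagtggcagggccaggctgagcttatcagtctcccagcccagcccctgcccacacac
Apoa4: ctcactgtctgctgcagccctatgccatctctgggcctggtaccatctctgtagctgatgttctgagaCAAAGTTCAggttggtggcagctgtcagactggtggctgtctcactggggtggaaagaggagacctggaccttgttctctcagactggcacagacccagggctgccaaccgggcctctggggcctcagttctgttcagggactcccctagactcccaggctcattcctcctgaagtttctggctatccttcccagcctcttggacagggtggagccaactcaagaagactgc
Apoa5: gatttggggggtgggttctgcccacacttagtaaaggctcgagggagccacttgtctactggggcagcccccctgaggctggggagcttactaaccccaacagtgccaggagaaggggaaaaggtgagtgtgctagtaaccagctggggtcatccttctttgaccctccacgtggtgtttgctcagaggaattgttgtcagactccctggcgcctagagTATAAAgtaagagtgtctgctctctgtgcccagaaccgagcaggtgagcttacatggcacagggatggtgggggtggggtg

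The windows were searched on both strands for 3 motifs, and none of the 3 printed holds more than 1 match. The TATA box TATAAA occurs in the Apoa5 window 31 bases before the start and in 13.6% of all 32851 windows of this length. The sequence CAAAGTNCA, a core of sites bound by the hepatocyte factor HNF4A, occurs in the Apoa4 window 182 bases before the start and in 1.41% of all windows. The nuclear receptor core site AGGTCA, present in 16.3% of all windows, is not among the letters of these 3. A match describes the letters and not a bound site. In all, 8 of the 10 genes had at least 1 window in the table, Apoc1 and Apoc3 being the others. Over all 12 windows of the members, TATAAA occurred in 5, AGGTCA in 2 (of Apoa2 and Apoc2) and CAAAGTNCA in 1.

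Among the HDL proteins, Apoa1 encodes the main structural protein of HDL and the activator of the enzyme that esterifies its cholesterol. Its probe set 1419232_a_at read 14587, 12806 and 14422 in isolated samples, against 14623, 14788 and 14929 in control samples. All 3 isolated values lay below every control value, and isolated replicate 2 was the lowest. The log2 change was -0.09 ± 0.10 (SE), a ratio of 0.941 with a 95% interval of 0.814 to 1.09, and the limma adjusted p was 0.843. It was -0.03 without isolated replicate 2.

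For 1455201_x_at the values were 12037, 11571 and 12263 in isolated samples and 12764, 12501 and 12506 in control samples, again without overlap. Means were 11664 ± 391 in isolated and 12130 ± 326 in control samples for 1419233_x_at, and 11129 ± 299 and 11590 ± 333 in the same order for 1438840_x_at (SD, n = 3 each), and both overlapped. The 4 log2 changes lay between -0.09 and -0.06, and between -0.05 and -0.03 without isolated replicate 2. The suffix _x, carried by 3 of the 4, is one that Affymetrix gives to probe sets with probes that may bind other transcripts, and the 4 are repeat readings of 1 gene and not independent evidence.

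Apoa2 encodes the second protein of HDL. It read 11822, 11189 and 11863 in isolated samples, against 12482, 11692 and 12237 in control samples. The groups overlapped at control replicate 2. Its log2 change was -0.06 with an interval of -0.27 to 0.15.

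Apom encodes the lipocalin of HDL that carries sphingosine-1-phosphate. Probe set 1419095_a_at read 2503, 2156 and 2445 in isolated samples, against 2613, 2526 and 2661 in control samples, with no overlap. Probe set 1419096_at read 1444, 1174 and 1541 in isolated samples, against 1591, 1481 and 1690 in control samples, where isolated replicate 3 lay above control replicate 2. The log2 changes were -0.14 and -0.20, with limma adjusted p of 0.786 and 0.682. Without isolated replicate 2 they were -0.07 and -0.09.

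Apoa5 and Apoa4 act on triglyceride-rich particles. Apoa5 promotes lipolysis of triglyceride by lipoprotein lipase, and human carriers of loss-of-function alleles have high plasma triglyceride. It read 7766, 6508 and 8454 in isolated samples, against 8637, 8829 and 8979 in control samples. Every isolated value was below every control value, and the isolated samples spread far more widely, with SDs of 987 in isolated and 171 in control samples. The log2 change was -0.23 ± 0.12 (SE), a ratio of 0.855 with an interval of 0.723 to 1.01. This was the smallest p of the family, 0.0647 before adjustment and 0.488 after it in limma. It was -0.12 without isolated replicate 2, with an adjusted p of 0.721, and -0.31 without isolated replicate 3.

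Apoa4 encodes an apolipoprotein made mainly by the intestine and, in mice, also by the liver, where fasting and lipid load raise it. Probe set 1417761_at read 660, 827 and 893 in isolated samples, against 820, 979 and 1013 in control samples. Isolated replicate 1 lay below all controls, while isolated replicates 2 and 3 lay above control replicate 1. The log2 change of -0.25 ± 0.16 (SE) was the most negative of the 16, with an interval of -0.58 to 0.08 and a limma adjusted p of 0.634. It was -0.12 without isolated replicate 1, a fit in which Apoa5 was lower, at -0.25. Probe set 1436504_x_at read 1288, 1567 and 1720 in isolated samples, against 1283, 1715 and 1910 in control samples, and its log2 change was -0.09. Its sign turned to 0.025 without isolated replicate 1 and to 0.029 without control replicate 3.

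Apob encodes the non-exchangeable scaffold of very low density lipoprotein. Its bright probe set 1455593_at read 9880, 9465 and 10438 in isolated samples, against 10049, 10282 and 10552 in control samples. The groups overlapped, and the log2 change was -0.05 with an interval of -0.27 to 0.16. The dim probe set 1457554_at read 345, 347 and 314 in isolated samples, against 291, 413 and 442 in control samples. Its control values spread more widely than its isolated values and enclosed all 3 of them, and its log2 change was -0.17 with an interval of -0.54 to 0.21. That change was -0.35 without control replicate 1 and -0.05 without control replicate 3. Signals of different probe sets depend on their probes, so the gap between these readings of 1 gene is not a difference in transcript level.

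The C apolipoproteins are small exchangeable proteins with opposed roles, apoC-II as the required cofactor of lipoprotein lipase, apoC-III as its inhibitor and apoC-I as an inhibitor of several lipoprotein enzymes. Apoc2 was the 1 member with a higher mean in isolated samples. It read 2248, 2008 and 2656 in isolated samples, against 1847, 1639 and 2392 in control samples. The groups overlapped, with control replicate 3 above isolated replicates 1 and 2. The log2 change was 0.24 ± 0.15 (SE), a ratio of 1.18 with an interval of 0.948 to 1.48, and the limma adjusted p was 0.626. It was 0.12 without control replicate 2, 0.14 without isolated replicate 3 and 0.40 without control replicate 3.

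Apoc3 read 8194, 6312 and 7579 in isolated samples, against 7600, 7532 and 8083 in control samples. The isolated samples held both the highest and the lowest of the 6 values. Its log2 change was -0.08 with an interval of -0.33 to 0.17, and it was 0.027 without isolated replicate 2. Apoc1 read 7676, 6473 and 7553 in isolated samples, against 7299, 6991 and 7700 in control samples, and its log2 change of -0.02 was the smallest of the 16 in size. It was 0.056 without isolated replicate 2 and 0.014 without control replicate 3. Apoc4, a neighbour of both Apoc1 and Apoc2 that was named after its values were seen, averaged 5572 ± 546 in isolated and 5569 ± 357 in control samples (SD, n = 3 each).

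Apoe encodes the ligand by which remnant particles bind the LDL receptor family, and it is made by hepatocytes and macrophages. It read 10603, 9425 and 10408 in isolated samples, against 10629, 10317 and 10644 in control samples. Isolated replicates 1 and 3 lay inside the control range, and isolated replicate 2 stood below it. The log2 change was -0.06 with all arrays and -0.003 without isolated replicate 2.

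**Figure D2:**
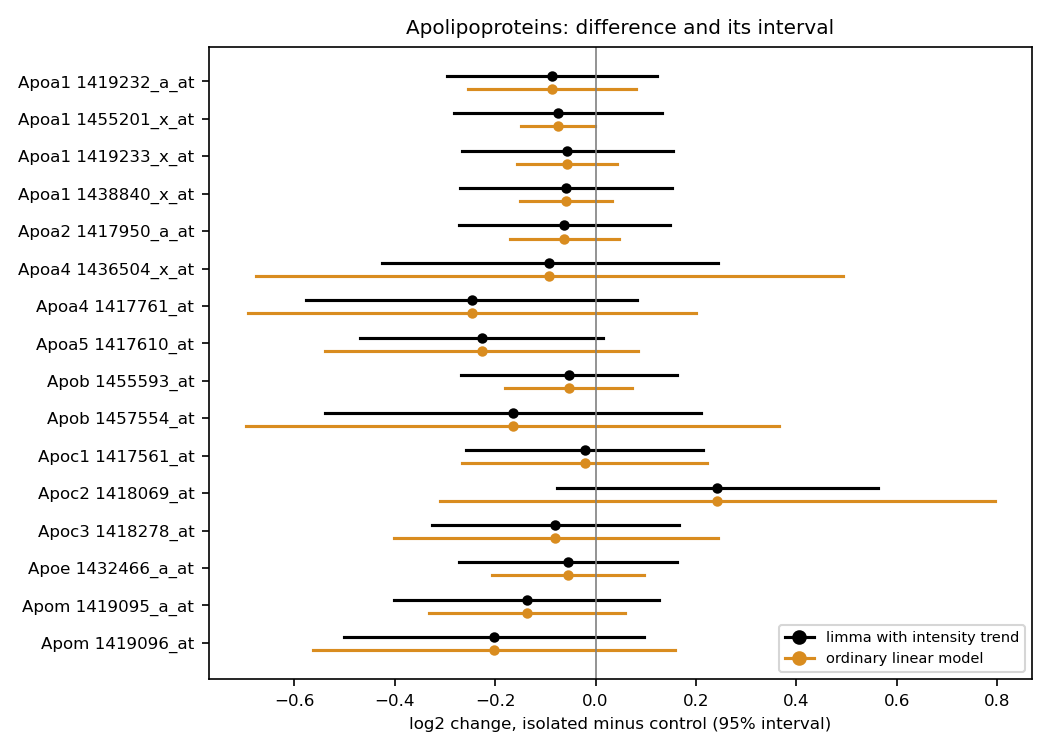
Log2 change of each apolipoprotein probe set, isolated minus control, with its 95% interval from the limma fit with an intensity trend (black) and from an ordinary linear model per probe set (orange). All 16 limma intervals include 0 and none reaches a change of 1 log2 unit; for the 4 Apoa1 probe sets, Apoa2, Apoe, the bright Apob probe set and Apom 1419095_a_at the ordinary intervals are narrower than limma's.

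Isolated values lay wholly below the controls in 4 probe sets, 1419232_a_at and 1455201_x_at of Apoa1, 1417610_at of Apoa5 and 1419095_a_at of Apom, which is 25% of 16 where 5.79% of all tested probe sets did so. Of the other probe sets in the brightest 1%, 4.65% did. The 2 of Apoa1 are readings of 1 gene, and the same arrays underlie all 4. No member lay wholly above the controls, against 9.62% of tested probe sets and 1.86% of the other probe sets in the brightest 1%.

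Isolated replicate 2 stood apart at the bright end. It was the lowest of the 6 arrays for 12 of the 16 apolipoprotein probe sets and for 70.7% of the 215 other probe sets in the brightest 1%. Its median log2 shift from the control mean was -0.14 over the apolipoproteins and -0.15 over those 215 probe sets, and it was -0.07 over the tested probe sets outside the brightest 25%. Isolated replicates 1 and 3 were shifted by -0.05 and -0.03 over the apolipoproteins and by 0.02 and 0.03 over the 215. Without isolated replicate 2, 13 of the 16 log2 changes remained below 0 and 2 changed sign, and the median over all tested probe sets was 0.10. Several of the 13 were very small, such as -0.003 for Apoe, -0.019 for the bright Apob probe set and -0.035 for Apoa2. Those of Apoa1 are repeat readings of 1 gene. Another fit centred each array on the median of the brightest 5% of tested probe sets, apolipoproteins included. It left Apoa5 at -0.23, with a limma adjusted p of 0.108, and Apoc2 at 0.24, with 0.273.

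**Figure D3:**
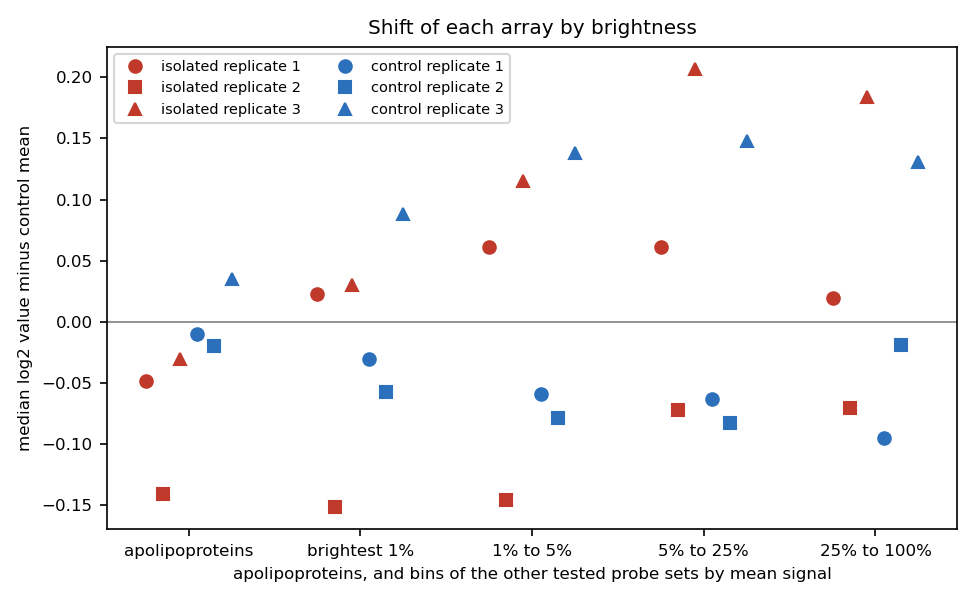
Median difference of each array from the control mean on the log2 scale, for the 16 apolipoprotein probe sets and for the other tested probe sets in bins from the brightest 1% to the dimmest 75%, isolated samples in red left of control samples in blue. Isolated replicate 2, the red square, lies at -0.14 for the apolipoproteins and -0.15 for the brightest 1%, below the other 5 arrays in both.

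The very bright signals were examined for the spread and the range they leave. Probe set 1419232_a_at of Apoa1 ranked 3 of 22519 by mean signal, and 5 apolipoprotein probe sets were among the first 12. An Apoa1 probe set was the brightest of the whole table on 2 of the 6 arrays. The hybridization controls, bacterial and phage transcripts added in steps of rising amount, had mean signals of up to 8188, for the 3′ Cre probe set. Of the 16 apolipoprotein probe sets, 8 had a mean above that control and 7 lay above it on every array, where 63 of all 22519 tested probe sets had a mean above it. No added control measured how the signal follows the amount above that point, so a change there may be understated, and by how much was not tested.

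Replicate spread narrowed with brightness. The pooled within-group SD of log2 signal was 0.03 to 0.07 in the 4 Apoa1 probe sets, 0.05 in Apoa2, 0.07 in Apoe and 0.06 in the bright Apob probe set. It was 0.14 in Apoa5 and in Apoc3, 0.24 in Apoc2 and 0.26 in probe set 1436504_x_at of Apoa4. Its median was 0.11 over the other probe sets of the brightest 1% and 0.25 over all tested probe sets. The spread of the log2 changes narrowed in the same way, with an SD of 0.12 in the brightest 1% and 0.37 over all tested probe sets.

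Limma's SE was larger than the probe set's own SE in 12 of the 16 members, since the prior from the trend carried 16.1 degrees of freedom and the arrays 4. For 1455201_x_at of Apoa1 the SE was 0.10 in limma and 0.03 in the ordinary linear model. That model gave this probe set an interval of -0.15 to -0.001 and a p of 0.0483, the 1 member under 0.05, with an adjusted p of 0.565. Apoa5 in the same model had a p of 0.114, and its adjusted p was 0.662. With a robust trend in limma its interval was -0.45 to -0.001, with a p of 0.049 before adjustment and 0.434 after it. Calls did occur in the brightest 1%. Hspa5, an endoplasmic reticulum chaperone with 2 probe sets there, and the lipogenic gene Thrsp, both named after their values were seen, had log2 changes of 0.51, 0.60 and 0.63 and limma adjusted p of 0.0146 to 0.0339. Group means of these probe sets ran from 4023 to 7935, below the mean of 8188 of the brightest added control. None of these calls lay in the range above that control.

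**Figure D4:**
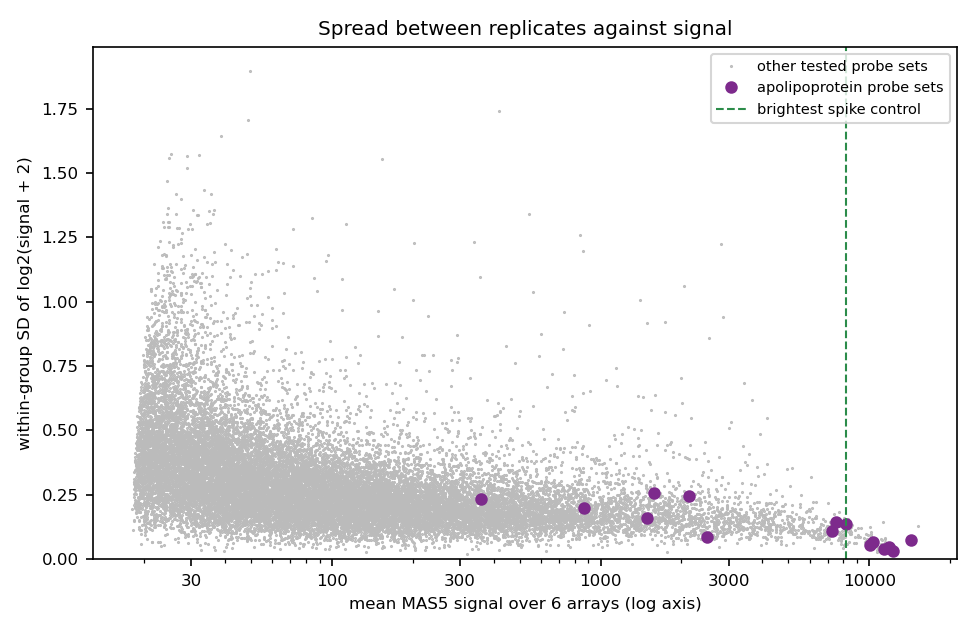
Within-group SD of log2(signal + 2), pooled over isolated and control samples, against mean MAS5 signal (log axis) for all tested probe sets, with the 16 apolipoprotein probe sets in purple and the brightest hybridization control as a dashed line at 8188. The members right of the line have SDs of 0.14 or less, and the 5 dimmest members have SDs of 0.16 to 0.26.

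The member that varied most over the 6 arrays was Apoc2, with a range of 0.70 on the log2 scale. Of 10985 other genes, those most like it by Pearson r over the 6 arrays were Fbxw17, Cog4, Etfrf1, Mast3 and Ap2m1, with r of 0.997 to 0.995. The arrays share groups and scale, and 5.68% of the genes had r above 0.9, so the ranking of so many genes over 6 points describes these arrays only. Among the other members r with Apoc2 ran from 0.006 for Apoa5 to 0.578 for Apoc1.

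No tested cell type marker was called, where 1.63% of all tested probe sets were. The lowest limma adjusted p was 0.0578, for the adipocyte gene Fabp4. Summed signals of 6 hepatocyte markers, among them Alb and Ttr, were 42896 to 47905 in isolated and 45268 to 47670 in control samples. Those of 8 Kupffer cell and macrophage markers, cells that also make Apoe, were 1841 to 2644 in isolated and 2240 to 2636 in control samples. Of 5 enterocyte markers on the array, Fabp2 averaged 1753 ± 107 in isolated and 1612 ± 170 in control samples, while Vil1, Lct, Alpi and Rbp2 were too dim to be tested, at 30.4 or less on every array. Adipocyte markers summed to 284 to 544 in isolated and 203 to 295 in control samples. The part of these lists in the apolipoprotein values was not tested. In whole liver, fewer cells of a type and less RNA per cell cannot be told apart.

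Genes that assemble, process and regulate these proteins were set beside them. Over 5 lists with 94 tested genes, 2 genes rose and 6 fell, and the median log2 change was -0.07. The share of all tested probe sets called was 0.773% higher and 0.857% lower.

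In the assembly and secretion of apoB lipoproteins, 2 of 24 tested genes fell, 0 rose and 22 did not pass, with a median log2 change of -0.03. Apobec1 encodes the deaminase that edits apoB mRNA, which in mouse liver yields the short form apoB-48. It read 190, 97.6 and 165 in isolated samples, against 338, 345 and 420 in control samples. The isolated values all lay below the controls, and the log2 change was -1.32 with a limma adjusted p of 0.0015. Probe sets for Apob do not report editing. Plin2, which coats the lipid droplets that store hepatic triglyceride, averaged 1860 ± 344 in isolated and 4079 ± 858 in control samples (SD, n = 3 each), a log2 change of -1.13 with a limma adjusted p of 0.000362. Tmem41b, named after its values were seen, did not pass by its brightest probe set, at 0.75 with an adjusted p of 0.0541. A dimmer probe set of it had 1.16 and 0.0128, but not without isolated replicate 2 (0.085) or control replicate 3 (0.0739), and its other 4 tested probe sets lay between -0.24 and 0.07. Mttp, which loads lipid onto apoB and was also named after its values were seen, averaged 1841 ± 151 in isolated and 1988 ± 270 in control samples.

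Of 21 tested genes of other apolipoproteins and HDL proteins, 0 were called, and the median log2 change was -0.09. The 3 with the smallest p were the acute phase HDL proteins Saa1 and Saa2 and the phospholipid transfer protein Pltp, with adjusted p of 0.306 to 0.519. Saa1 read 296, 397 and 439 in isolated samples, against 234, 2628 and 1034 in control samples, so its difference in mean came from control replicates 2 and 3. Of 13 tested receptors and clearance genes, 0 were called, and the median was 0.01. Sulf2, a heparan sulfatase, averaged 360 ± 28.1 in isolated and 506 ± 45.1 in control samples with a limma adjusted p of 0.166, and the proteoglycan Sdc1 averaged 1963 ± 240 and 1447 ± 235 in the same order with 0.175. Probe sets of Sulf2 disagreed, the other 2 tested having log2 changes of 0.42 and 0.23. Cd36, a fatty acid transporter, had a log2 change of 0.56 with 0.377, and its other 2 tested probe sets disagreed in sign, at 0.38 and -0.35.

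In lipolysis of lipoproteins, 1 of 9 tested genes rose, 1 fell and 7 did not pass, with a median log2 change of -0.17. Both called genes encode inhibitors of lipoprotein lipase. Angptl8 had a log2 change of 2.37 and Angptl4 of -2.07, with limma adjusted p of 3.23e-05 and 1.91e-05. Lpl, the lipase itself and also named after its values were seen, averaged 172 ± 52.5 in isolated and 133 ± 17.4 in control samples (SD, n = 3 each), with a limma adjusted p of 0.629.

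Among 28 tested regulators of apolipoprotein genes, 1 rose, 3 fell and 24 did not pass, with a median log2 change of -0.08. Srebf1, a factor of lipogenesis, had a log2 change of 2.40 with a limma adjusted p of 2.85e-06. Nr0b2, which encodes the corepressor SHP, had -1.45 with 0.000292. Cebpb, a factor of the hepatic acute phase and fasting programmes, read 421, 384 and 679 in isolated samples, against 1067, 1037 and 1211 in control samples, a log2 change of -1.20 with a limma adjusted p of 0.00084. Its other tested probe set was also called, at -0.96 with 0.0413, but not without isolated replicate 2 (0.177), control replicate 1 (0.117) or control replicate 3 (0.158).

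Ppara encodes the fatty acid receptor that controls Apoa5 in human cells and several genes of lipid oxidation. It read 839, 749 and 1167 in isolated samples, against 1411, 1396 and 1768 in control samples. The isolated values lay below the controls, at -0.75 on the log2 scale with a limma adjusted p of 0.022. This call was lost without isolated replicate 1 (0.0558), isolated replicate 2 (0.0642) or control replicate 3 (0.124). Ppara has 2 other tested probe sets, of which the brighter, at -0.95 with 0.00168, passed in each of those fits. The dimmer, at -0.47 with 0.247, did not pass, and its groups overlapped. Rora, chosen after seeing its values, did not pass by its brightest probe set, at -0.54 with 0.138. A dimmer one had -0.85 with 0.0214, but 0.0579 to 0.084 without isolated replicate 3 or any 1 control. The other tested probe sets of Rora lay between -0.70 and -0.145, with limma adjusted p of 0.09 or more. Hnf4a, a main activator of apolipoprotein genes in hepatocytes, also chosen after seeing its values, averaged 2981 ± 243 in isolated and 2917 ± 458 in control samples.

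Without the intensity trend, Srebf1 was the 1 gene of these 8 that passed, and with a robust trend Angptl4 (adjusted p 0.0699) and Angptl8 (0.129) did not. The bright liver genes, such as Alb, Ttr and fibrinogen chains, had 0 calls among 35 tested and a median log2 change of -0.04, against -0.07 for the brightest probe set of each of the 10 apolipoproteins. The list was chosen by gene name and not by signal. Ass1 in it, named after its values were seen, averaged only 224 ± 71.4 in isolated and 159 ± 72.0 in control samples. The 3 smallest p of the list belonged to Hamp2, Bhmt and Tat, with log2 changes of 0.65, 0.37 and 0.50 and limma adjusted p of 0.151 to 0.34. Each was called in at least 1 alternative: Hamp2 (0.000215) and Bhmt (0.0283) without isolated replicate 2, and Tat without isolated replicate 1 (0.0452).

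**Figure D5:**
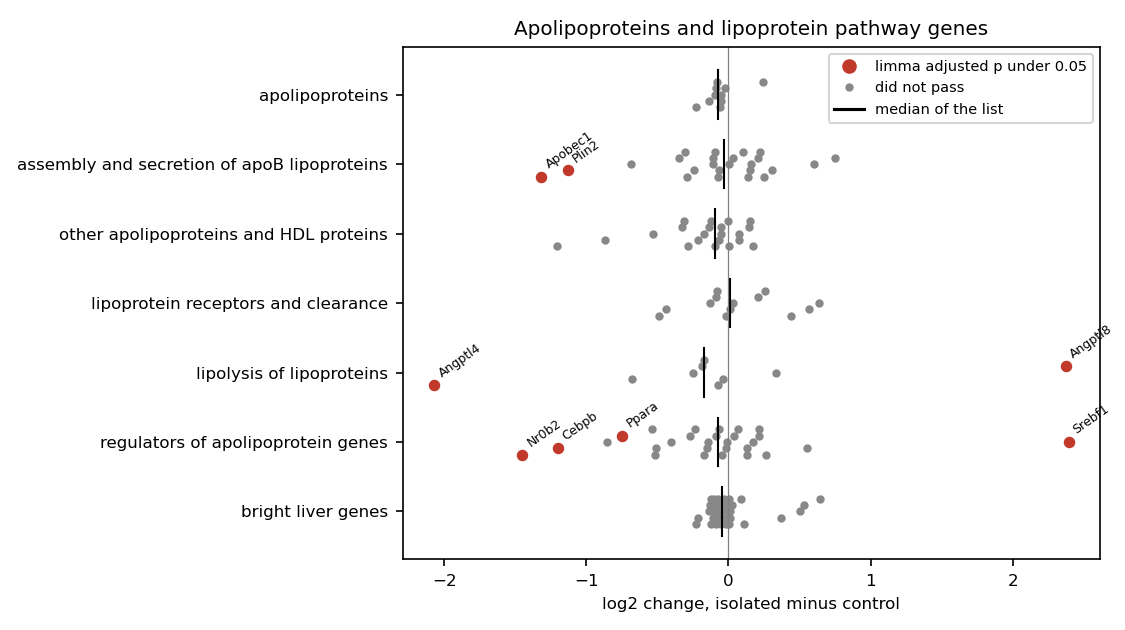
Log2 change, isolated minus control, of the brightest tested probe set of each gene, for the 10 apolipoproteins and 6 lists, with called genes in red and named and the median of each list as a black bar. The apolipoproteins span -0.23 to 0.24 with 0 called, while Angptl8, Srebf1, Angptl4, Nr0b2, Apobec1, Cebpb, Plin2 and Ppara pass an adjusted p under 0.05 in limma.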

How the data were processed

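Deposited intensity values were MAS5 signals per probe set, per the submitters' processing notes; MAS5 combines perfect-match and mismatch probes, and its noise grows at dim signals. The scaling target is not given in the sources used here; detection calls were not used, and the 2% trimmed mean ran from 92.5 to 111 over the arrays. The authors' scale was kept.

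Of 45101 probe sets, 64 controls were set apart, and the upper 50% of the rest by mean log2(signal + 2) went into the test (22519, each with a mean of at least 18 in signal). Limma 3.58.1 in R 4.3.3 fitted 2 groups over all 6 arrays, with eBayes moderation on an intensity trend, two-sided tests and Benjamini-Hochberg adjustment across the 22519. Intervals are 95% from that fit. Fold changes are on the log2(value + 2) scale, which understates changes of dim genes. The number of arrays, 3 per group, limits the precision, and an exact permutation test of 3 against 3 cannot go below 0.1. The procedure was tested on simulated data with independent normal noise. That noise held no shift shared by an array, and the planted changes were larger than those of the apolipoproteins. The simulation therefore does not show how the fit handles either.

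Symbols came from the platform annotation: 34958 probe sets had 1 symbol, 932 several and 9211 none, and 34754 matched RefSeq by gene identifier. Outside the apolipoproteins, a gene was represented by its brightest tested probe set. Named genes were all members, every called gene of each list or otherwise the 3 with the smallest p, and the 5 genes most like the most variable member. Genes outside this rule are marked as named after their values were seen. Members, lists and tests were chosen with earlier results of these data known. List genes with no single-symbol probe set were not analysed here.

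Alternatives covered the pseudocount, filter, normalization, variance model, array weights, replicate block, test, threshold and each array left out. Same-numbered isolated and control samples did not deviate together (r of 0.00777, 0.0436 and 0.00491 across probe sets), and the labels do not pair them. Ratios of 3′ to 5′ Gapdh signals averaged 0.691 ± 0.00354 in isolated and 0.705 ± 0.0138 in control samples (SD, n = 3 each, exact permutation p 0.2). For beta-actin they averaged 2.16 ± 0.182 and 2.21 ± 0.0951 in the same order (exact permutation p 0.9), and isolated replicate 2 had the highest, 2.35. Figures were drawn with matplotlib 3.10.9.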

Additional observations from a re-analysis of the deposited data

How the results depend on the processing

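Over 288 combinations of an apolipoprotein probe set and an alternative, 279 kept their direction and their side of the threshold and 9 changed sign. Of the 288, 0 passed an adjusted p under 0.05 in limma or the ordinary model. With no filter, no or a robust intensity trend, the replicate block or the ordinary model, the log2 change is the same by construction. Its sign could change only under the other alternatives, so the 279 overstate how stable the directions are. Quantile normalization turned Apoa1 1419233_x_at to 0.00036, Apoa1 1438840_x_at to 0.00056 and Apoc1 to 0.0018, and array weights turned Apoc1 to 0.025. With 1 array left out, Apoa4 1436504_x_at ran from -0.257 to 0.029, Apoc1 from -0.067 to 0.056 and Apoc3 from -0.161 to 0.027. Tested probe sets called numbered 174 higher and 193 lower, against 81 and 101 with no filter (more probe sets tested), 15 and 16 with no intensity trend, and 303 higher at an adjusted p under 0.1. The ordinary linear model called 0 and 0, with 1253 higher and 727 lower at an unadjusted p under 0.05. With 1 array left out, 97 (without isolated replicate 3) to 200 were called higher and 82 (without control replicate 3) to 246 lower. Of the 94 pathway genes, 2 higher and 6 lower became 1 and 0 with no intensity trend, 0 and 0 in the ordinary model (5 and 10 at an unadjusted p under 0.05) and 4 higher with array weights, where Sdc1 and Tmem41b were added. Of 35 bright liver genes, 0 higher became 1 with quantile normalization (Bhmt, 0.0408), 1 with array weights (Hamp2, 0.0301) and 0 to 2 with 1 array left out. The fit with a replicate block called 265 higher and 248 lower, 0 of them apolipoproteins, and the numbers do not pair the samples. The cause of these changes was not tested. How signal follows amount above the brightest added control was not tested; 8 of the 16 probe sets had a mean above it and 7 lay above it on every array.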
